A study of Mus musculus with 8 samples.

Results

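The genes considered here are App, which encodes the amyloid precursor protein, and 8 genes around it: its relatives Aplp1 and Aplp2, the secretase genes Adam10, Bace1 and Psen2, the lipoprotein genes Apoe and Clu, and Mapt, which encodes tau. A member was taken as the probe set annotated with that 1 symbol, and with the highest mean where a gene had several. Each of the 9 genes had exactly 1 such probe set, so the choice covered 9 of the 35556 probe sets on the array, 23410 of which carried a gene symbol and were tested. RNA came from the whole brains of male C57BL/6J offspring, taken as adults on postnatal day 70, and was hybridised to Mouse Gene 1.0 ST arrays from Affymetrix. Early ethanol mice were born to dams that received 2 injections of ethanol, of 2.5 g/kg each, on each of gestational days 8 and 11, and early saline mice to dams injected with saline on those days. Late ethanol and late saline mice came from dams treated likewise on gestational days 14 and 16. Each of the 4 groups had 2 arrays, each array held RNA pooled from 3 males of different litters, and every SD below is over n = 2 arrays, so the number of arrays limits the precision of all values.

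As background, the amyloid precursor protein is a membrane protein of neurons and many other cells. Cleavage by an alpha-secretase such as Adam10 cuts within the amyloid-beta stretch and releases a soluble ectodomain, whereas cleavage by the beta-secretase Bace1 followed by the gamma-secretase complex, which holds a presenilin as its catalytic subunit, releases amyloid-beta peptide. Apolipoprotein E, made in the brain mainly by astrocytes, and clusterin carry lipids and bind that peptide, and tau binds microtubules in axons. The question put to these genes was whether their transcripts in the adult brain differed after prenatal ethanol at either timing.

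The upstream sequence of App is shown because promoter methylation of this gene was a subject of the study, in brains other than those measured here, and that of Apoe because it is poorer in CpG. RefSeq promoter windows (GRCm38.p6) were matched for 6 of the 9 genes, App, Aplp1, Aplp2, Apoe, Psen2 and Adam10. Each sequence is the 250 bases before an annotated start, on the transcribed strand, with every CG dinucleotide in capitals, which reads the same on both strands.
App, chr16:85173708-85173957, minus strand: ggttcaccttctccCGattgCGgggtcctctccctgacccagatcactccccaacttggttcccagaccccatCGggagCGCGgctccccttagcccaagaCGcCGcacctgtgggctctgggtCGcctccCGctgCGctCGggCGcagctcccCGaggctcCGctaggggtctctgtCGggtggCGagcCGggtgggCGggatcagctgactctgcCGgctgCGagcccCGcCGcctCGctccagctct
Apoe, chr7:19699189-19699438, minus strand: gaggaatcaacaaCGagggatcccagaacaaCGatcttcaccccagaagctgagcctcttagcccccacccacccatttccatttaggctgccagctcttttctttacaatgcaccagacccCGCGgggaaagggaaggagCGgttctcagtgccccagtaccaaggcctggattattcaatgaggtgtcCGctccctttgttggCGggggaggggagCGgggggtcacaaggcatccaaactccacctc
The App window held 23 CpG, a number reached or passed by 13.3% of the 32851 promoter windows in the table. The Apoe window shown, the one farthest upstream of its 3, held 8, reached by 43.0% of windows. Methylation was not measured in these samples, and the windows are given as a description.

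On the arrays, no transcript of the 9 passed the test at either timing. After Benjamini-Hochberg adjustment, limma called 0 of the 9 genes and 0% of the 23410 probe sets for early exposure, and likewise 0 and 0% for late exposure (threshold 0.05). Before adjustment, 0 of the 9 genes passed 0.05 at either timing, against 1.71% of all probe sets (401) early and 2.49% (583) late. The study itself asked for an unadjusted p below 0.05 together with a change of 1.2-fold, and by that rule 0 of the 9 genes were called early, where 0.923% of all probe sets were, and 0 late, where 1.16% were. Probe sets for odorant and vomeronasal receptors served as a measure of background, and the 9 genes lay above their 95th percentile on all 8 arrays. Fold changes ran between 0.934 (Adam10) and 1.09 (Aplp1) for early exposure, and between 0.875 (Bace1) and 1.03 (Aplp2) for late exposure. The median of all arrays' values was lower at the early than at the late timing (6.74 to 6.84 against 7.21 to 7.30 on the log2 scale), so ethanol was set against saline within a timing only.

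**Figure D1:**
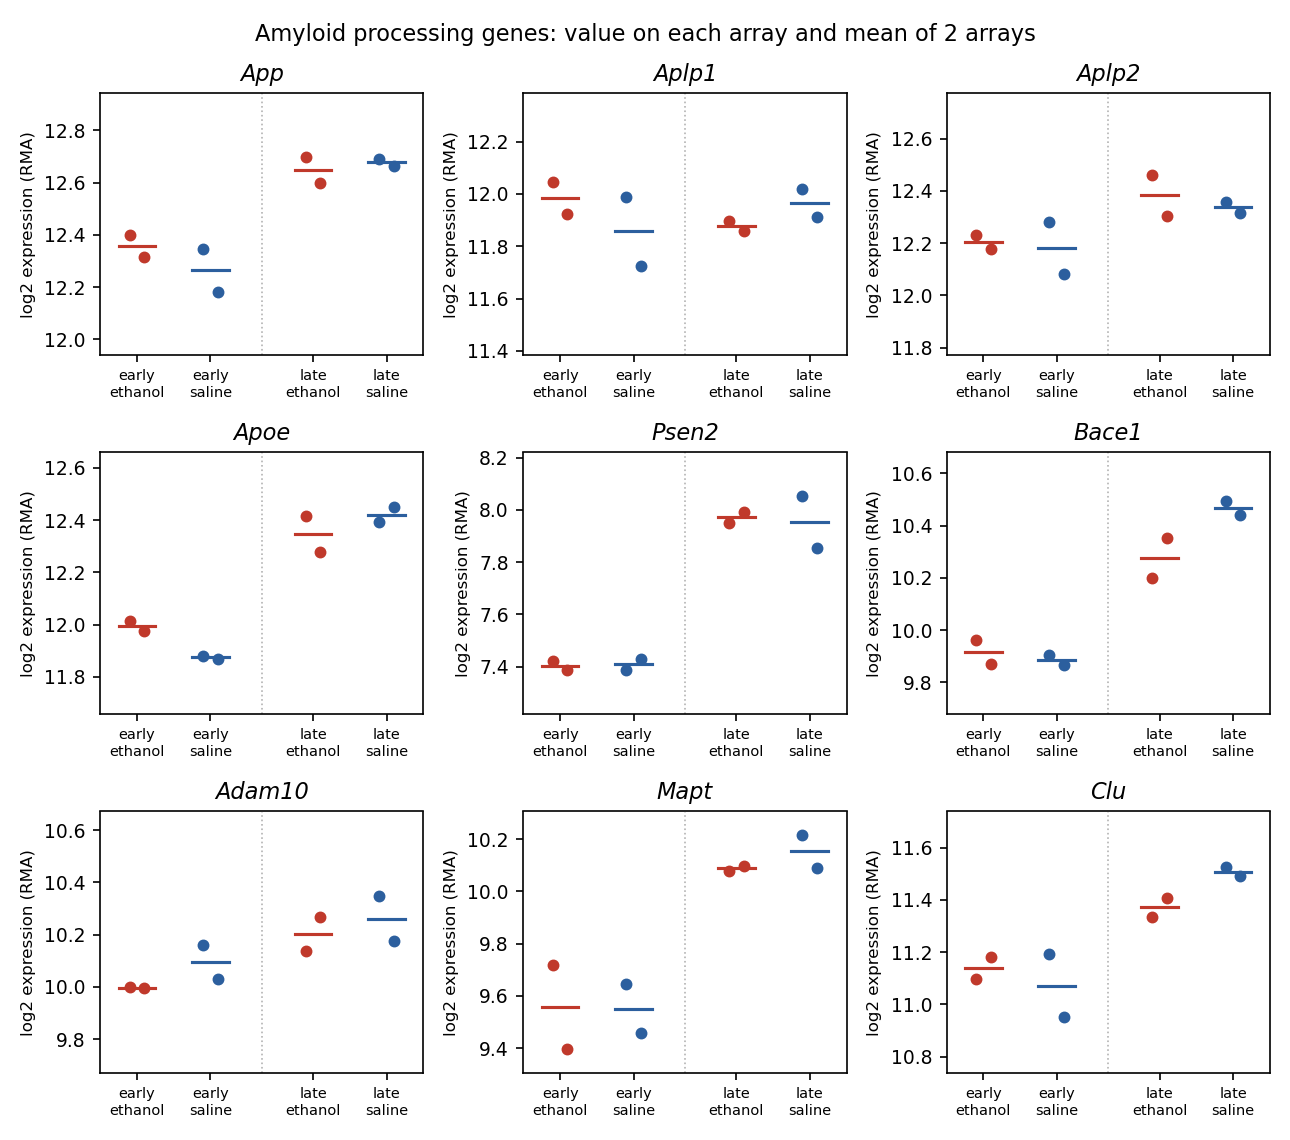
Log2 expression (vertical axes, RMA, each spanning 1 log2 unit) of the 9 genes on every array, with ethanol in red, saline in blue, 1 point per array and bars marking group means. The groups are apart for Apoe and Adam10 in the early arrays and for Bace1, Aplp1 and Clu in the late arrays, and overlap elsewhere.

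The substrates of the secretases were examined first. App (probe set 10440491, chromosome 16) was at 12.40 and 12.32 in the early ethanol arrays, against 12.35 and 12.18 in early saline, on the log2 scale. In the late arrays App was at 12.70 and 12.60 in ethanol, against 12.69 and 12.66 in saline. At both timings the groups overlapped, with ethanol replicate 1 the highest array and, in the early arrays, saline replicate 2 the lowest. The log2 difference of App was 0.095 (SE 0.089, 95% confidence interval -0.11 to 0.30) for early exposure and -0.029 (interval -0.23 to 0.17) for late exposure, with a limma adjusted p = 1 for both. The late interval lay within a change of 1.2-fold in either direction, and the early one reached past it. The early difference was 0.013 without early saline replicate 2, 0.052 without early ethanol replicate 1 and 0.18 without early saline replicate 1. With quantile normalization over the 8 arrays App differed by -0.0013 early and 0.039 late, and with cyclic loess by -0.0046 and 0.031, so neither direction held under those scalings. The late difference was -0.079 without late ethanol replicate 1 and 0.021 without late ethanol replicate 2.

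Aplp1 and Aplp2 encode the amyloid precursor-like proteins, which are cut by the same enzymes but lack the amyloid-beta stretch. Aplp1 (probe set 10561927) was at 12.04 and 11.92 in early ethanol, against 11.99 and 11.72 in early saline. It was at 11.90 and 11.86 in late ethanol, against 12.02 and 11.91 in late saline. The late ethanol arrays thus both lay below the late saline arrays, by a narrow margin, whereas the early groups overlapped. The difference of Aplp1 was 0.13 (SE 0.11, interval -0.11 to 0.37) after early exposure and -0.088 (interval -0.33 to 0.15) after late exposure. The early value rested on saline replicate 2, without which it was -0.0060, and it was 0.26 without saline replicate 1. With quantile normalization it was 0.042. The late value was -0.035 without late saline replicate 1, -0.14 without late saline replicate 2 and -0.029 with cyclic loess. Aplp2 (probe set 10592023) was at 12.23 and 12.18 in early ethanol, against 12.28 and 12.08 in early saline. It was at 12.46 and 12.30 in late ethanol, against 12.36 and 12.32 in late saline. Saline arrays bracketed the ethanol arrays in the first case and ethanol arrays bracketed the saline arrays in the second. Its differences were 0.022 (interval -0.20 to 0.24) and 0.045 (interval -0.18 to 0.27).

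Of the secretases, Bace1 had the largest difference of any of the 9 genes. Bace1 (probe set 10584941), the beta-secretase, was at 10.20 and 10.35 in late ethanol, against 10.49 and 10.44 in late saline. Both ethanol arrays lay below both saline arrays, with means of 10.28 ± 0.11 in ethanol and 10.47 ± 0.037 in saline (SD, n = 2 arrays each). The log2 difference was -0.19 (SE 0.086, interval -0.39 to 0.0043), a fold of 0.875, with an unadjusted p = 0.054 and an adjusted p = 1 in limma. With quantile normalization over the 8 arrays this difference was -0.15, and with cyclic loess -0.14. It was -0.27 without late ethanol replicate 2 and -0.12 without late ethanol replicate 1. In the early arrays Bace1 was at 9.96 and 9.87 in ethanol, against 9.90 and 9.86 in saline, and the groups overlapped with a difference of 0.034 (interval -0.16 to 0.23).

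Adam10 (probe set 10586844), a metalloprotease with alpha-secretase activity, was at 10.00 and 9.99 in early ethanol, against 10.16 and 10.03 in early saline. The ethanol arrays were nearly equal and below both saline arrays, and the difference was -0.099 (SE 0.095, interval -0.32 to 0.12). It was -0.032 without early saline replicate 1 and -0.17 without early saline replicate 2. In the late arrays Adam10 was at 10.14 and 10.27 in ethanol, against 10.35 and 10.18 in saline, and the groups overlapped (difference -0.061, interval -0.28 to 0.16). Psen2 (probe set 10360648), the second presenilin, had the smallest early difference. It was at 7.42 and 7.39 in early ethanol, against 7.39 and 7.43 in early saline, and at 7.95 and 7.99 in late ethanol, against 8.05 and 7.86 in late saline. Its groups overlapped at both timings, and its differences were -0.0043 (interval -0.21 to 0.20) and 0.016 (interval -0.19 to 0.22).

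Apoe had the tightest early replicates among the lipoprotein genes. Apoe (probe set 10560624) was at 12.01 and 11.98 in early ethanol, against 11.88 and 11.87 in early saline. Both ethanol arrays lay above both saline arrays, with means of 12.00 ± 0.027 in ethanol and 11.87 ± 0.0091 in saline (SD, n = 2 arrays each). The log2 difference was 0.12 (SE 0.082, interval -0.067 to 0.31), a fold of 1.09, with an unadjusted p = 0.177 and an adjusted p = 1 in limma. The methods' analysis of variance of the 4 early arrays does not moderate variances over probe sets. It gave an unadjusted p = 0.027 and an adjusted p = 1, and the fold stayed under the study's threshold. In that analysis 797 of 23410 probe sets had an unadjusted p under 0.05. With quantile normalization over the 8 arrays the difference was 0.030, and with cyclic loess 0.039. In the late arrays Apoe was at 12.42 and 12.28 in ethanol, against 12.39 and 12.45 in saline, and the groups overlapped (difference -0.074, interval -0.26 to 0.11). That difference was -0.0032 without late ethanol replicate 2, -0.14 without late ethanol replicate 1 and -0.014 with cyclic loess.

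Clu (probe set 10416057), the gene of clusterin, was at 11.33 and 11.41 in late ethanol, against 11.53 and 11.49 in late saline. Both late ethanol arrays lay below both saline arrays, and the difference was -0.14 (SE 0.098, interval -0.36 to 0.088, adjusted p = 1 in limma). It was -0.073 with quantile normalization and -0.079 with cyclic loess. In the early arrays Clu was at 11.10 and 11.18 in ethanol, against 11.19 and 10.95 in saline. Here the saline arrays bracketed the ethanol arrays, and the difference of 0.068 was -0.053 without saline replicate 2 and 0.19 without saline replicate 1. Mapt (probe set 10381776) was the most variable of the 9 genes, with an SD within groups of 0.14 against a median of 0.10 over all probe sets. It was at 9.72 and 9.40 in early ethanol, against 9.64 and 9.46 in early saline, and at 10.08 and 10.10 in late ethanol, against 10.22 and 10.09 in late saline. The early ethanol arrays were the highest and the lowest of their timing, and the differences were 0.0064 (interval -0.27 to 0.28) and -0.064 (interval -0.34 to 0.21).

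**Figure D2:**
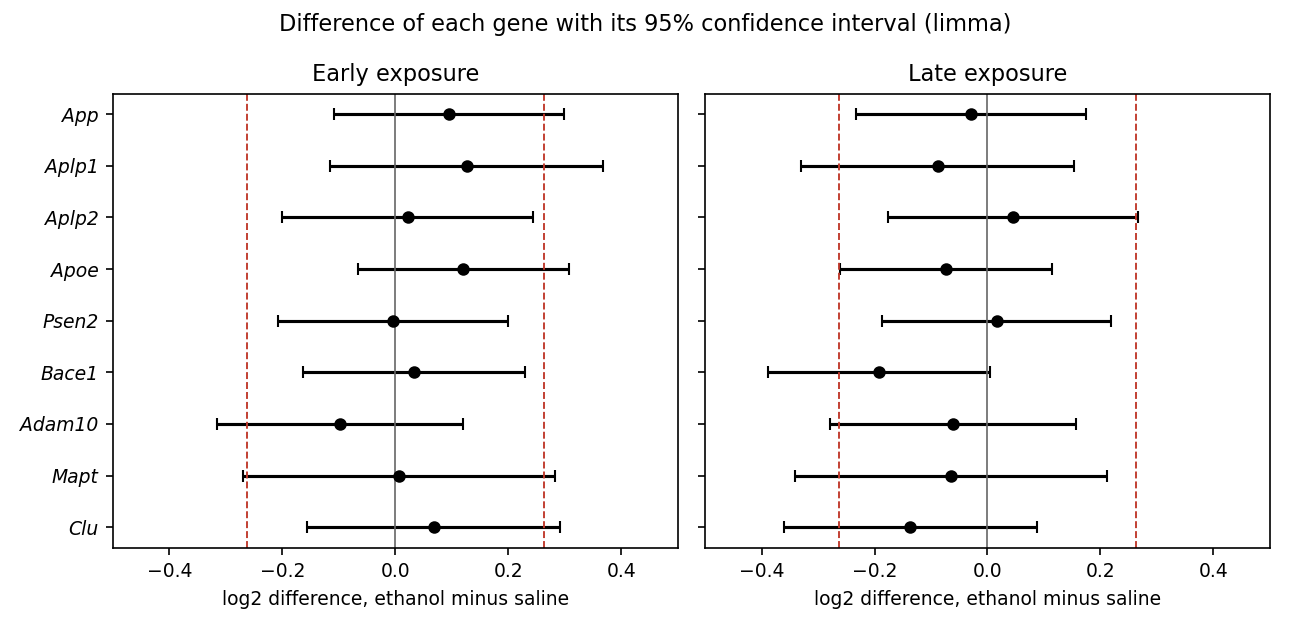
Log2 difference of ethanol minus saline (horizontal axes) for each of the 9 genes (vertical axis) after early and late exposure, with points at the limma estimate, bars for the 95% confidence interval and dashed lines at a change of 1.2-fold. All 18 intervals span 0, and Bace1 after late exposure, at -0.19, comes closest to excluding it.

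Across the 9 genes, the groups of arrays did not overlap for 2 genes after early exposure and for 3 after late exposure. Of all probe sets, 26.4% and 28.4% were apart in this way, so these counts are near the background. Apoe was the 1 gene with both early ethanol arrays above both saline arrays (7.50% of all probe sets) and Adam10 the 1 with both below (18.9%). Aplp1, Bace1 and Clu were the 3 with both late ethanol arrays below (15.7%), and 0 had both above (12.7%). The median of the 9 log2 differences was 0.034 for early exposure, where 7 were above 0 and 59.8% of all probe sets were below 0, and -0.064 for late exposure, where 7 were below 0 and 52.7% of all probe sets were. Over all probe sets the medians were -0.020 and -0.0067. Among the brighter 50% of probe sets by mean, to which all 9 genes belong, they were -0.020 and -0.052.

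The precision of 2 arrays a group set what could be seen. All 18 intervals lay within a change of 1.5-fold in either direction. They lay within 1.2-fold for Aplp2, Psen2 and Bace1 after early exposure and for App, Apoe and Psen2 after late exposure. The outermost bounds were folds of 0.803 for Adam10 and 1.29 for Aplp1 in the early comparison, and 0.764 for Bace1 in the late one, where the highest upper bound was that of Aplp2. For the mean of both ethanol effects, which uses all 8 arrays, all 9 intervals lay within 1.2-fold, between bounds of 0.850 (Adam10) and 1.14 (Aplp2), and the median of the 9 differences was 0.0060. There too limma called 0 of the 9 genes and 0% of all probe sets after adjustment, and 0 of the 9 before it, against 1.56% of all probe sets (366). The study's thresholds took 0 of the 9 genes and 0.162% of all probe sets.

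The early effect minus the late effect asked whether timing mattered. Its median over the 9 genes was 0.12, and it was below 0 in 3 of 9, against 55.2% of all probe sets. The median was 0.032 with quantile normalization and 0.043 with cyclic loess, and with 1 array left out it ranged between 0.042 (without early saline replicate 2) and 0.20 (without early saline replicate 1). For the gene with the largest value, Bace1, it was 0.23 (SE 0.12, interval -0.052 to 0.50, unadjusted p = 0.098 and adjusted p = 1.00 in limma). For Aplp1 it was 0.21 (interval -0.13 to 0.56), for Clu 0.20 (interval -0.11 to 0.52) and for Apoe 0.19 (interval -0.071 to 0.46). App stood at 0.12 (interval -0.16 to 0.41), but at -0.040 with quantile normalization and -0.035 with cyclic loess, and Adam10 at -0.038 (interval -0.35 to 0.27). No difference between timings was detectable for any of the 9: 0 passed the adjusted threshold, as did 0% of all probe sets, 0 had an unadjusted p under 0.05, against 2.06% of all probe sets (483), and 0 passed the study's thresholds, which 1.99% of all probe sets did. Without early saline replicate 1, Aplp1 stood at 0.35 and Clu at 0.33, and without late ethanol replicate 2 Bace1 stood at 0.30. Without early saline replicate 2, by contrast, Aplp1 stood at 0.082, Clu at 0.083 and App at 0.042, and without late ethanol replicate 1 Bace1 stood at 0.15. Quantile normalization gave 0.085 for Aplp1, 0.11 for Clu and 0.097 for Apoe. Adam10 stood at 0.029 without early saline replicate 1, at 0.027 without late ethanol replicate 2, and at 0.048 without late saline replicate 2. Among the cell type markers, 3 of 10 oligodendrocyte genes (Mbp, Mobp and Cldn11) passed the study's thresholds in this contrast, and the list's median was 0.22, against 0.14 for 13 neuron markers and 0.066 for 12 astrocyte markers. The part of these shifts in the values of the 9 genes was not tested.

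On the array farthest from the mean at each timing, the 9 genes lay on the same side as markers of neurons, oligodendrocytes and astrocytes. Among the early arrays, saline replicate 2 was low, with 8 of the 9 genes below the mean of the 4 arrays and an average deviation of -0.087 on the log2 scale. Ethanol replicate 1 (0.058) and saline replicate 1 (0.046) were high and ethanol replicate 2 (-0.017) lay between. Neuron markers deviated by -0.14 in early saline replicate 2, with 12 of 13 genes below the mean of the 4 arrays, oligodendrocyte markers by -0.13, with 9 of 10, and astrocyte markers by -0.14, with 12 of 12. Microglia markers deviated by -0.047 in that array, whereas endothelial markers went the other way, at 0.12, with 1 of 7 genes below the mean. Among the late arrays, the 9 genes stood at -0.031 and -0.034 in ethanol, against 0.071 and -0.0066 in saline. Saline replicate 1 was the high array, with 1 of the 9 genes below the mean, 1 of 13 neuron markers, 1 of 10 oligodendrocyte markers and 0 of 12 astrocyte markers. In late saline replicate 1, endothelial markers (0.16) and microglia markers (0.032) were above the mean too. In early saline replicate 2 the median deviation of all probe sets tested was 0.0029, so the low values were not shared by the whole array. In late saline replicate 1 that median was 0.031, on the same side as the 9 genes and the largest of any array. The part of these shifts in the differences of the 9 genes was not tested.

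**Figure D3:**
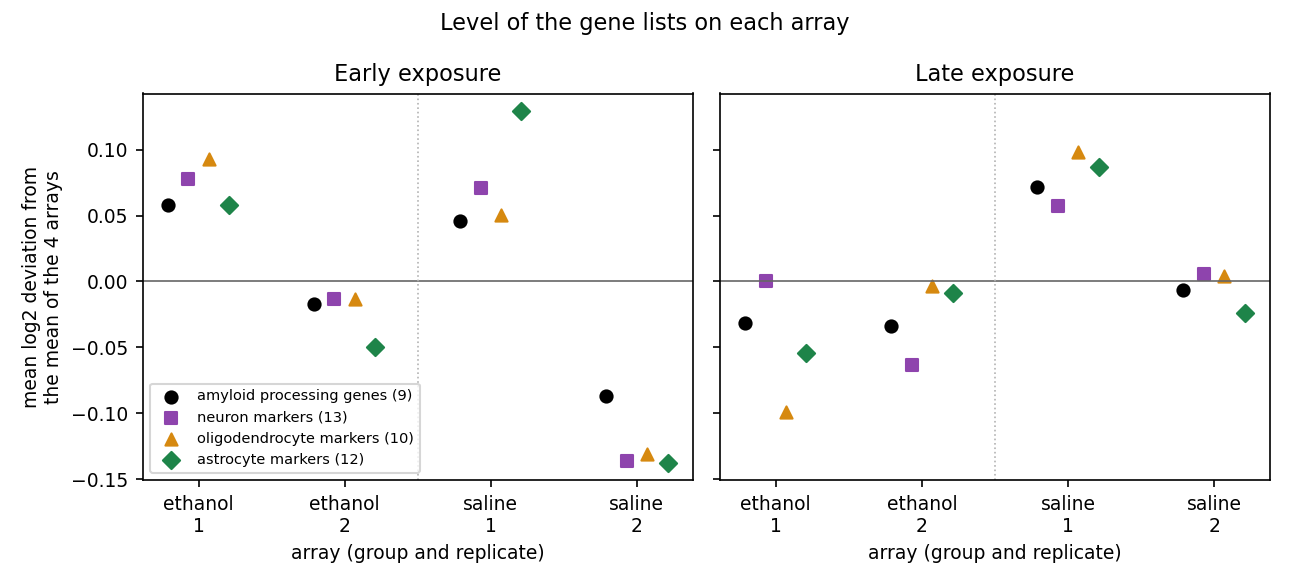
Mean log2 deviation of each gene list from the mean of the 4 arrays of its timing (vertical axis) on each array (horizontal axis, ethanol before saline), with the number of measured genes in the legend. The 9 amyloid processing genes lie low with the marker lists drawn in early saline replicate 2 (-0.087) and high with them in late saline replicate 1 (0.071).

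By group, the cell type markers gave differences of the same order as the 9 genes. After late exposure the median difference was -0.068 for 13 neuron markers, with both ethanol arrays below both saline arrays in 8, -0.12 for 10 oligodendrocyte markers, in 6, and -0.074 for 12 astrocyte markers, in 2. Of all probe sets, 15.7% had both late ethanol arrays below both saline arrays. After early exposure the medians were 0.059, 0.088 and -0.015. On these 3 lists 0 genes passed the study's thresholds at either timing, and every measured gene lay above background at both. In such RNA, fewer cells of a type and less RNA per cell cannot be told apart. Microglia markers had medians of -0.028 (early) and 0.024 (late), 7 endothelial markers -0.12 and -0.14, and 7 choroid plexus markers -0.0087 and -0.087, with 1 choroid plexus gene past the study's thresholds, lower in late ethanol. Markers of nasal tissue averaged 8.24 and 7.40 in early ethanol, against 7.10 and 7.13 in early saline, so that ethanol replicate 1 stood apart in this mean. The 8 genes did not go one way: 3 were past the study's thresholds and higher in early ethanol (Bpifb9b by 3.78, Bpifb9a by 2.49 and Obp2a by 1.59) and 2 were past them and lower (Stoml3 by -1.59 and Omp by -0.66), with a median of 0.012. Their part in the differences of the 9 amyloid processing genes was not tested. Without this array the early differences were 0.052 for App, 0.10 for Apoe and -0.10 for Adam10, and those of Aplp2 (-0.0055), Bace1 (-0.012) and Mapt (-0.16) lay on the other side of 0.

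Genes that act with App were then taken from 5 lists. Over all probe sets, 59.8% were lower after early exposure and 52.7% after late exposure. Among the brighter 50% of probe sets the late median was -0.052. The secretase list held 9 measured genes, of which 7 were lower and 2 higher after early exposure (median -0.046) and 8 lower and 1 higher after late exposure (median -0.069). None passed the study's thresholds. Aph1b, a subunit of the gamma-secretase complex, was at 8.76 and 8.59 in early ethanol, against 8.80 and 8.84 in early saline (difference -0.14), and differed by -0.11 in the late arrays. It was -0.062 without early ethanol replicate 2 and -0.016 without late saline replicate 1. Ncstn, which encodes nicastrin of the same complex, was at 9.47 and 9.65 in late ethanol, against 9.78 and 9.68 in late saline (difference -0.17, and -0.081 without late ethanol replicate 1). Bace2, a homologue of Bace1, lay at background in the early arrays, with a difference of 0.13.

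The next list held 18 genes of App adaptors, of proteins that sort or carry App, and of the Itm2 family. Of these, 11 were higher after early exposure (median 0.020) and 17 lower after late exposure (median -0.056), where 52.7% of all probe sets were lower. At either timing 0 passed the study's thresholds. Mapk8ip1, a scaffold of JNK signalling that binds App, was at 10.66 and 10.70 in late ethanol, against 10.86 and 10.86 in late saline. The groups were apart, with a difference of -0.18 (unadjusted p = 0.064, adjusted p = 1 in limma). In the early arrays it differed by 0.11, and its early effect minus late effect of 0.29 passed the study's thresholds (unadjusted p = 0.038, adjusted p = 1.00 in limma). Mapk8ip1 was the 1 gene of these 5 lists to do so, where 1.99% of all probe sets did. With quantile normalization, and with cyclic loess, it differed by 0.12 early and by -0.12 late. Its early difference was 0.052 without early saline replicate 2 and 0.17 without early ethanol replicate 2. Itm2a, a membrane protein with a BRICHOS domain, was at 8.89 and 8.93 in early ethanol, against 9.29 and 8.92 in early saline. Its difference of -0.20 rested on saline replicate 1, without which it was -0.0077, and it was -0.38 without saline replicate 2. Apba2, an adaptor of the App tail, differed by -0.13 after late exposure (-0.036 without late saline replicate 1 and -0.22 without late saline replicate 2).

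Of 13 genes that degrade or bind amyloid peptide, 7 were higher after early exposure (median 0.0093) and 9 lower after late exposure (median -0.035). Cst3, the secreted protease inhibitor cystatin C, was at 13.70 and 13.65 in early ethanol, against 13.63 and 13.19 in early saline. Saline replicate 2 was far below the other 3 arrays, and the difference of 0.26 was 0.042 without it and 0.48 without saline replicate 1. Mmp14, a membrane matrix metalloprotease, was at 6.73 and 6.67 in early ethanol, against 6.83 and 6.93 in early saline (difference -0.18). In the late arrays Ece1, an endothelin-converting enzyme, differed by -0.18, with 8.93 and 9.08 in ethanol, against 9.16 and 9.22 in saline. A2m, a broad protease inhibitor, also differed by -0.18, but by -0.011 without late ethanol replicate 1 and by -0.35 without late ethanol replicate 2. For Ece1 the value was -0.11 without late ethanol replicate 1, and its early difference was 0.13, with the groups overlapping.

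The Apoe lipid list held 15 measured genes, 9 of them lower at each timing, with medians of -0.038 (early) and -0.034 (late). Abca1, the transporter that loads lipid onto Apoe, was at 8.38 and 8.40 in early ethanol, against 8.51 and 8.58 in early saline. Both ethanol arrays were below both saline arrays, and the difference was -0.16 (unadjusted p = 0.093, adjusted p = 1 in limma). In the late arrays Abca1 went the other way, by 0.097, with both ethanol arrays above both saline arrays. Trem2, a microglial receptor that binds Apoe and is also on the microglia list, was at 8.65 and 8.48 in late ethanol, against 8.31 and 8.40 in late saline. The groups were apart, and the difference of 0.21 had an unadjusted p = 0.046 and an adjusted p = 1, with a fold below the study's threshold. It was 0.13 without late ethanol replicate 1. Lrp8, a receptor for Apoe and reelin, differed by -0.13 in the late arrays, and Nr1h3, a nuclear receptor for oxysterols, by 0.13 in the early arrays, where it lay at background. Without early saline replicate 1 the value of Nr1h3 was 0.060, and without saline replicate 2 it was 0.20.

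The last list held 21 genes of tau kinases and their activators, of phosphatase subunits and of microtubule proteins. Of these, 11 were higher after early exposure (median 0.016) and 17 lower after late exposure (median -0.061), with both late ethanol arrays below both saline arrays in 9. Over all probe sets, 52.7% were lower after late exposure and 15.7% had both ethanol arrays below. Mark1 and Mark2, kinases that act on tau at its microtubule-binding repeats, differed by -0.15 and -0.14 after late exposure. Mark2 was at 9.15 and 9.22 in late ethanol, against 9.34 and 9.32 in late saline. For Mark1 the value was -0.098 without late ethanol replicate 1. The early values of Map2, the dendritic relative of tau (0.13), and of Cdk5r1, the p35 activator of Cdk5 (-0.18), were carried by single saline arrays. Without early saline replicate 2 they were 0.014 and -0.37, and without early saline replicate 1 they were 0.24 and 0.016. None of the 21 passed the study's thresholds.

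**Figure D4:**
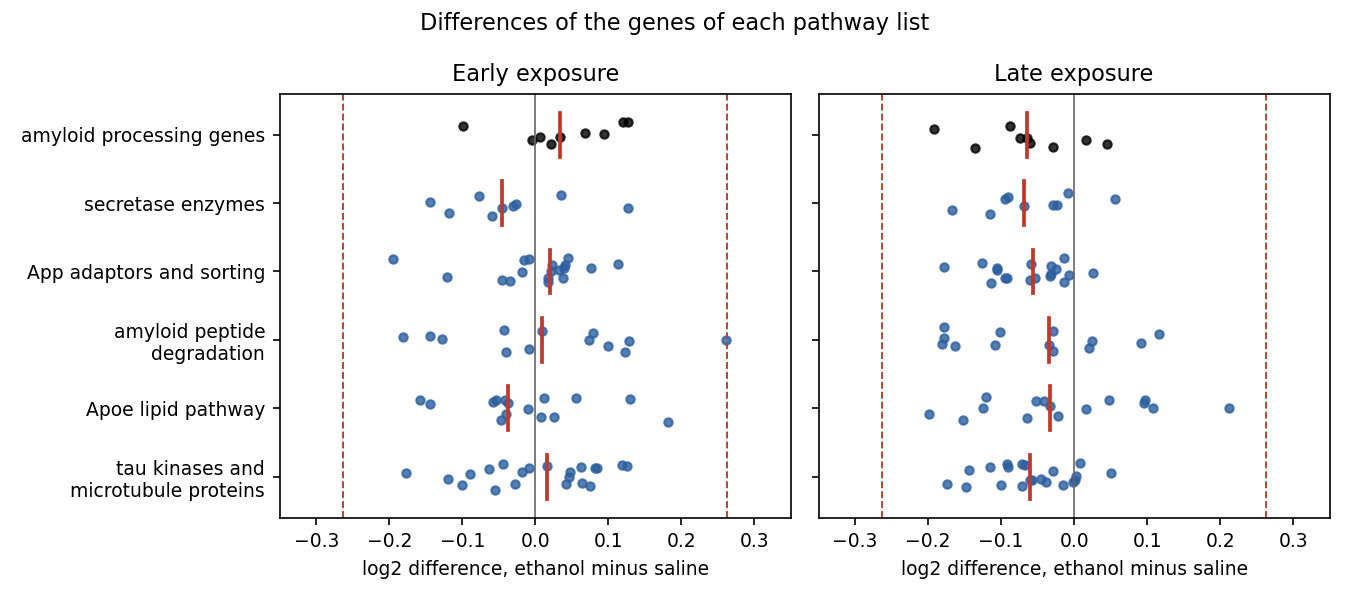
Log2 difference of ethanol minus saline (horizontal axes) for each measured gene of 6 lists (vertical axis) after early and late exposure, with a red bar at the median of each list and dashed lines at a change of 1.2-fold. Every gene lies within the dashed lines, and the medians of the 6 lists lie between -0.046 and 0.034 after early exposure and between -0.069 and -0.034 after late exposure.

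The study grouped Akt1, Ghr and other genes with App and Apoe on the basis of methylation in other brains. Akt1, a kinase of insulin signalling, was at 10.56 and 10.56 in early ethanol, against 10.72 and 10.49 in early saline, and differed by -0.043. The 2 ethanol arrays lay between the saline arrays, and the difference was 0.073 without saline replicate 1 and -0.16 without saline replicate 2. In the late arrays it differed by -0.092 (-0.024 without late ethanol replicate 1 and -0.16 without late ethanol replicate 2). Ghr, the growth hormone receptor, was at 7.67 and 7.63 in early ethanol, against 7.83 and 7.76 in early saline. Both ethanol arrays were below both saline arrays, with a difference of -0.14 (unadjusted p = 0.130, adjusted p = 1 in limma). Its late difference was 0.056, and -0.0086 without late ethanol replicate 1.

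Among probe sets of 1 symbol above background, the genes whose deviations from the timing mean over the 8 arrays came closest to those of App were Ndufa3, a subunit of respiratory complex I, Gap43, a growth cone protein, and Mrtfb, a coactivator of serum response factor. Their root mean square gaps to App were 0.020, 0.021 and 0.023 on the log2 scale, where App itself deviated by 0.063. Of the 9 genes, Aplp2 was nearest to App, with a gap of 0.041 and at rank 159 among 10759 candidates. For Apoe the closest were Rpl21 (0.021), Rpl13 (0.028) and Hdgfl2 (0.030), of which Rpl21 and Rpl13 encode ribosomal proteins, and App was the nearest of the 9 genes (0.050). Such gaps over 8 arrays are descriptions and share the shifts between arrays given above.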

How the data were processed

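Whole brain RNA of 8 pools of 3 mice was measured on 1 array each. The deposited values are on the log2 scale: the authors summarized probe sets in Partek (6.6 per the submitters' processing notes) by RMA, with quantile normalization and an adjustment for GC. Array medians differ between the timings, which may have been normalized apart. The genome build is not given in the sources used here. RMA values of different probe sets are not comparable as levels.

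Probe sets were named from GEO's platform annotation, and 12146 without a symbol were left out. Ethanol and saline were compared in R 4.3.3 with limma 3.58.1, fitting 4 group means to the 8 arrays, with 4 residual degrees of freedom, moderated variances and Benjamini-Hochberg adjustment over 23410 probe sets (threshold 0.05). The study's own rule (1.2-fold and an unadjusted p below 0.05) was counted too. Background was the 95th percentile of 1210 receptor probe sets. As a check of the code, the fit was run on simulated data with independent noise for each probe set. Those data lack the shifts between arrays given above, so they do not measure how well small changes could be seen here. Members and gene lists were chosen with earlier results of these data known. All 9 genes are described. From each pathway list the 2 genes of smallest unadjusted p per timing were named, with the measured genes of the study's App group, and for App and Apoe the 3 genes with the smallest gap whose deviations spanned at least 50% of the member's range. Plots were drawn with matplotlib 3.10.9 (Python 3.11.15).

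Alternatives were the methods' analysis of variance, a fit to each timing alone, a replicate block, 3 other normalizations, 2 filters, array weights, an intensity trend, 1 probe set per gene, every probe set, and each array left out in turn, where a lone array was assumed to vary like the others. A block with crossed late numbers was added after seeing the data. No gene of the 9 had another probe set of 1 symbol to try.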

Additional observations from a re-analysis of the deposited data

How the results depend on the processing

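The 9 genes gave 492 values under other settings (both timings, and the difference between timings for 6 genes). Of these, 463 kept their direction, 29 changed sign and 0 passed the adjusted threshold. Of 500 such values of the named pathway genes, 496 kept their direction, 4 changed sign and 0 passed. Settings that change only the test, the fit or the set of probe sets left each difference as it was. For a difference within a timing, so did leaving out an array of the other timing. Such values could not change sign, so the counts of kept directions do not measure stability. Centring on the array median gave Mapt -0.0038 (early) and Psen2 -0.0052 (late). Quantile normalization gave App -0.0013, Aplp2 -0.065 and Map2 -0.0015 (early), App 0.039 (late) and App -0.040 (difference between timings). Cyclic loess gave App -0.0046, Aplp2 -0.066 and Psen2 0.016 (early), App 0.031 (late) and App -0.035 (difference between timings). The median of the 9 differences between timings, 0.12, was 0.032 with quantile normalization and 0.043 with cyclic loess. The cause was not tested.

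Leaving out 1 array at a time gave early values between -0.0060 (without saline replicate 2) and 0.26 (without saline replicate 1) for Aplp1, -0.078 and 0.12 for Aplp2, and -0.053 and 0.19 for Clu, without the same arrays in that order. Under the same omissions Psen2 stood at 0.018 and -0.026, Cdk5r1 at -0.37 and 0.016, and Akt1 at -0.16 and 0.073. Bace1 ranged between -0.012 and 0.079 and Mapt between -0.16 and 0.17 (without early ethanol replicates 1 and 2 in that order). Late values ranged between -0.079 and 0.021 for App, -0.034 and 0.12 for Aplp2, and -0.0086 and 0.12 for Ghr (without late ethanol replicates 1 and 2 in that order), and between -0.083 and 0.12 for Psen2 and -0.15 and 0.025 for Adam10 (without late saline replicates 2 and 1 in that order). The difference between timings of Adam10 ranged between -0.12 (without late saline replicate 1) and 0.048 (without late saline replicate 2). The median of the 9 genes ranged between -0.0060 and 0.12 (early), -0.13 and -0.015 (late), -0.047 and 0.033 (mean of both) and 0.042 and 0.20 (difference). The late value of Bace1 ranged between -0.27 and -0.12 (without late ethanol replicates 2 and 1 in that order). Probe sets past the adjusted threshold numbered 0 to 13 (early), 0 to 6 (mean of both) and 0 to 5 (difference), the highest each without early ethanol replicate 2.

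Over all probe sets, the study's thresholds took 216 (early) and 272 (late), against 60 and 58 with the methods' analysis of variance and 669 and 674 with every probe set kept. Quantile normalization gave 31 higher and 139 lower early, against 65 and 151 as deposited. Same-numbered arrays deviated with a correlation of 0.47 (early) and -0.46 (late) across probe sets. With so few arrays a group, a shift shared by many probe sets can give either sign. These values therefore do not decide whether the numbers pair the samples. The replicate block gave 229 and 354 probe sets at those thresholds and 0 past the adjusted one, left every difference as it was and called 0 of the 9 genes. With late numbers crossed, a pairing chosen after seeing the data, it gave 564 and 519. Of the 9 genes, 0 were past the adjusted threshold there and 1 (Bace1, late) had an unadjusted p under 0.05. So did 1106 of 23410 probe sets after late exposure, against 583 without a block.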
